A study of Homo sapiens with 6 samples.

Results

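The 9 genes described here belong to the NRF2 antioxidant pathway: NFE2L2, which encodes the transcription factor NRF2, its repressor KEAP1, and the 7 target genes NQO1, HMOX1, GCLM, GCLC, TXNRD1, SRXN1 and SLC7A11. They were taken by gene symbol from a deposited table of 16306 genes. All 9 passed the filter on low counts, as did 12620 genes in all. The samples were PC9 cells, a human lung adenocarcinoma line with an activating EGFR deletion, that carried either a negative control shRNA (sh-NC, 3 libraries) or an shRNA against the splicing factor RBM10 (shRBM10, 3 libraries). Neither the labels nor the methods name the RBM10 shRNA in each library, and separate cultures are not described, so p-values measure the spread between these libraries only. The shRBM10 libraries are called A, B and C here, since only A could be matched to a replicate number. The labels name 2 library kits, describe poly-T capture for 1 of them and assign neither to a library. The comparison asks how RBM10 knockdown moved the level of each gene.

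In cells at rest, KEAP1 holds NRF2 in the cytoplasm and presents it to the CUL3 ubiquitin ligase for breakdown. Oxidants and electrophiles modify cysteines of KEAP1, NRF2 then collects in the nucleus, pairs with a small MAF protein and binds antioxidant response elements near its target genes. Those targets make and use glutathione (GCLC, GCLM, SLC7A11), run the thioredoxin system (TXNRD1, SRXN1), reduce quinones (NQO1) and break down heme (HMOX1). NRF2 is regulated mainly at the protein level, and loss of KEAP1 function is a recurrent event in lung adenocarcinoma. RNA levels alone were measured here.

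The core of the antioxidant response element, TGACNNNGC, was looked up on both strands of the RefSeq promoter windows (GRCh38.p14), which run from 250 bases before to 50 bases after each start site. Of 35116 such windows, 4687 (13.3%) held it. The table had 10 windows for 7 of the 9 genes, and 4 windows of 3 genes (KEAP1, GCLM and TXNRD1) held the letters. HMOX1 and SLC7A11 had no entry. The windows of NFE2L2, NQO1, GCLC and SRXN1 did not hold these letters, which says nothing of elements outside 300 bases. The match of GCLM and 1 match each of KEAP1 and TXNRD1 are printed below, because these 3 resemble each other. Each is read 5′ to 3′ on the strand that carries the motif, with the fixed letters of the core in capitals.
GCLM, chr1:93909447-93909473, plus strand: ggaagacaaTGACtaaGCagaaatcgt
TXNRD1, chr12:104286921-104286947, minus strand: gagtcagaaTGACaaaGCagaaatcca
KEAP1, chr19:10502785-10502811, plus strand: aggtcaccaTGACtaaGCagagccggg
The GCLM core lies 26 to 34 bases upstream of its start site, the TXNRD1 core 94 to 102 bases upstream of the downstream start site, and the KEAP1 core 23 to 31 bases upstream of the downstream start site. Over 27 bases the GCLM and TXNRD1 windows were identical at 19 positions and the GCLM and KEAP1 windows at 17, with an unbroken run of 13. The second KEAP1 match in the same window and the 2 matches at the upstream TXNRD1 start site shared 9 to 13 positions with the GCLM window. All these counts include the fixed letters of the core, which every match holds because of the search. A match of this kind is a description of sequence and not evidence that NRF2 binds there.

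The authors' estimated counts summed to between 16606390 and 18864243 per library. RBM10 was at normalized counts of 1431, 1183 and 1469 in sh-NC replicates 1 to 3 and at 537, 515 and 672 in shRBM10 A to C, so its RNA was lower in each knockdown library, by 43.2% at the closest pair (log2 fold change -1.24 ± 0.23 SE, adjusted p = 0.10 by edgeR and 0.00157 by DESeq2). The libraries within a group did not scatter evenly. Counts of sh-NC 1 and 3 were close (a chi-square of 2.93 for each degree of freedom), while sh-NC 2 differed from both by 158 or more, and library C was nearer to sh-NC 1 (29.8) than library A was (124). Of the 11065 genes with a mean normalized count of at least 50, 71.1% lay within 1.25-fold of the mean of sh-NC 1 and 3 in library C, against 30.1% in A, 37.8% in B and 28.9% in sh-NC 2. The epithelial markers KRT8, KRT18, KRT19, EPCAM and EGFR were present in every library, whereas the lung lineage markers NKX2-1 and SFTPC had at most 2 counts. EGFR had 1890 estimated counts in sh-NC 2 and 11026 to 14601 in the other libraries. CDH1, also on the epithelial list, had 1224 in sh-NC 2 and 3111 to 4373 elsewhere. KRT8 (347195) and KRT18 (187719) were highest in sh-NC 2. Summed markers of fibroblasts ran from 43 to 138 counts in the control and from 106 to 212 in the knockdown libraries. COL1A1 held 28 to 185 of these, and DCN and LUM were at 0. Those of endothelium ran from 73 to 207 and from 48 to 72, of which CDH5 held 40 to 177. Summed blood and immune markers were higher, from 2080 to 2453 and from 1804 to 2439. Of these CD68 held 1795 to 2442, with CD3E and HBB at 0. Such sums mainly follow a single gene. The labels' extraction text mentions retinas, and summed retinal markers ran from 95 to 116 counts in sh-NC and from 67 to 82 in shRBM10, of which NRL held 64 to 115 and RCVRN 0. In bulk RNA of this kind, a lower share of expressing cells and less RNA per cell cannot be told apart.

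NFE2L2, GCLC, SLC7A11 and TXNRD1 were at higher levels in shRBM10 libraries A and B than in every sh-NC library, at 1.66 to 2.46 times the mean of sh-NC 1 and 3, whereas library C held 0.79 to 1.06 times that mean. KEAP1, SRXN1 and NQO1 were lower in A and B (0.66 to 0.92 times), and GCLM and HMOX1 differed least between the groups. None of the 9 differences passed the adjusted test. A gene was called when its Benjamini-Hochberg adjusted p by edgeR was under 0.05 and its level differed more than 2-fold in either direction, an absolute log2 value over 1. None of the 9 genes met this rule, against 2 of 12620 genes tested (0.0158%). DESeq2's Wald test also called 0 of the 9, against 4.64% of the genes it gave an adjusted p, and limma-voom called 0. By the looser rule that took the p-value without adjustment and kept the fold limit, 1 of the 9 passed as higher (GCLC), against 10.1% of all genes. In the opposite direction 0 passed, against 1.53%. With no limit on the fold change 2 had an unadjusted p under 0.05 by edgeR (GCLC and TXNRD1), against 24.3% of all genes, and 5 by DESeq2 (those 2, NFE2L2, NQO1 and SLC7A11), against 25.7%. The libraries of the 2 groups did not overlap for 2 genes that were higher in shRBM10 (GCLC, TXNRD1), as was so for 13.8% of all genes, and for 3 that were lower (KEAP1, NQO1, SRXN1), as for 16.2%. For 4 of these 5 the gap between the closest libraries was under 2%. The median log2 fold change of the 9 was 0.16, beside 0.027 over all genes tested, with 6 values above 0 and 3 below.

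**Figure D1:**
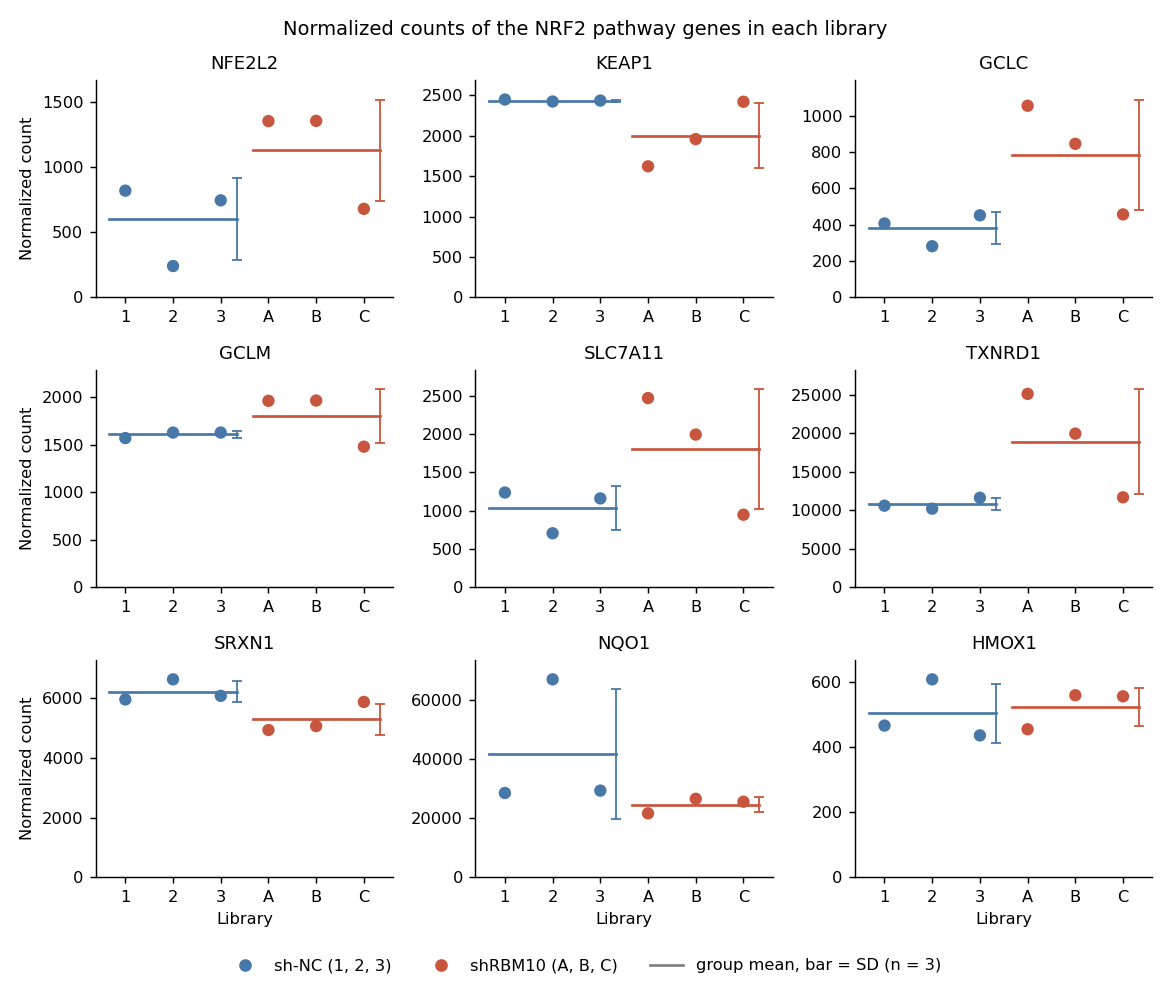
Normalized counts (vertical axes from 0) of the 9 genes in sh-NC libraries 1 to 3 (blue) and shRBM10 libraries A to C (red). Lines are group means and bars the SD (n = 3). For NFE2L2, GCLC, SLC7A11 and TXNRD1, libraries A and B lie above all sh-NC libraries and library C lies near sh-NC 1 and 3, while NQO1 is set apart by sh-NC 2 at 67055.

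Levels between genes can be compared only per length, for which the authors' group means of FPKM (fragments per unit of transcript length and sequencing depth) were used. These carry no spread, so neighbours in the order could not be tested. NQO1 led in sh-NC with 905 FPKM, rank 141 of the table, followed by TXNRD1 (169) and SRXN1 (143). KEAP1 stood at 55.9 FPKM. HMOX1 (20.0), GCLM (18.1), NFE2L2 (15.2) and SLC7A11 (12.6) formed a lower group, and GCLC was lowest with 5.92 FPKM, below the 18.1 of GCLM, the other subunit of the same enzyme. In shRBM10 the order was the same for the first 4 genes, with 624 FPKM for NQO1 and 323 for TXNRD1, and NFE2L2 came next with 29.1. SLC7A11 was at 12.6 FPKM in sh-NC and 15.4 in shRBM10, a smaller ratio than its mean normalized counts gave (1034 and 1802). The reason was not tested.

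NFE2L2 (Entrez gene 4780; chromosome 2 of GRCh38, 177227595 to 177392697, minus strand) had normalized counts of 819.9, 241 and 745 in sh-NC 1 to 3. In shRBM10 A to C it had 1354, 1356 and 680.0. Libraries A and B were thus above every sh-NC library, C was below sh-NC 1 and 3, and the groups overlapped. The group means were 602 ± 315 and 1130.0 ± 389.6 (SD, n = 3 each), and the log2 fold change came to 0.91 ± 0.44 (SE), with an adjusted p of 0.229 by edgeR. Sh-NC 2 held 0.31 times the mean of the other two sh-NC libraries, and leaving it out gave 0.44. A ratio that low or lower in sh-NC 2 was seen in 5.78% of the genes with a mean count of at least 50. In GENCODE release 29, 17.6% of the exon bases of NFE2L2 are shared with AC019080.1 on the same strand, so a part of its counts could belong to either gene.

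KEAP1 (Entrez gene 9817; chromosome 19, 10486120 to 10503741, minus strand), the adaptor that marks NRF2 for breakdown, was even across sh-NC at 2449.6, 2425 and 2436. It was at 1623, 1959 and 2422 in shRBM10 A to C. Library A was lowest and B intermediate, but C differed from the nearest sh-NC library by only 0.113%, so the separation of the groups rests on a gap smaller than counting error. The means were 2437 ± 12.3 and 2002 ± 401 (SD, n = 3 each), and the log2 fold change was -0.28 ± 0.22 (SE, adjusted p = 0.421 by edgeR).

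In glutathione synthesis, GCLC is the catalytic and GCLM the modifier subunit of glutamate-cysteine ligase, the rate-limiting enzyme, and SLC7A11 is the cystine importer that supplies its cysteine. GCLC (Entrez gene 2729; chromosome 6, 53497341 to 53616970, minus strand) had normalized counts of 407, 282 and 452 in sh-NC and of 1055, 846 and 457 in shRBM10 A to C. Libraries A and B held 2.46 and 1.97 times the mean of sh-NC 1 and 3, and C held 1.06 times that mean, 1.13% above the highest sh-NC library. From 380.5 ± 88.1 in sh-NC to 786 ± 304 in shRBM10 (SD, n = 3 each), its log2 fold change of 1.04 ± 0.34 (SE) was the largest of the 9 in size. The p-value by edgeR was 0.0120 before and 0.156 after adjustment, and the adjusted p of DESeq2 was 0.0649. An exact permutation test, two-sided, gave p = 0.1, the smallest that 3 against 3 libraries allow. The log2 fold change was 0.78 without sh-NC 2, 0.78 without library A, 0.99 without library B and 1.26 without library C, so that each of the first 3 took GCLC under the fold limit.

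GCLM (Entrez gene 2730; chromosome 1, 93885205 to 93909456, minus strand) differed much less than its partner. Its normalized counts were 1572, 1629.5 and 1629.7 in sh-NC and 1964, 1967 and 1481 in shRBM10 A to C. A and B stood above all sh-NC libraries, each at 1.23 times the mean of sh-NC 1 and 3, C stood below all of them, and the groups overlapped. Between the groups the log2 difference was 0.16 ± 0.21 (SE), with an adjusted p of 0.630 by edgeR. The difference between the fold changes of GCLC and GCLM was not tested.

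SLC7A11 (Entrez gene 23657; chromosome 4, 138164097 to 138242349, minus strand) was at 1236, 705 and 1160 in sh-NC. In shRBM10 A to C it was at 2468, 1992 and 947. A and B were the 2 highest libraries and sh-NC 2 the lowest, while C fell between sh-NC 2 and 3, so that the groups overlapped. The means were 1034 ± 287 and 1802 ± 778 (SD, n = 3 each), with a log2 fold change of 0.80 ± 0.36 (SE) and an adjusted p of 0.208 by edgeR. The same value was 0.50 without sh-NC 2 and 1.04 without library C. On the opposite strand, SLC7A11-AS1 shares 9.0% of the exon bases, and the strand setting of the counting is not given in the sources used here.

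**Figure D2:**
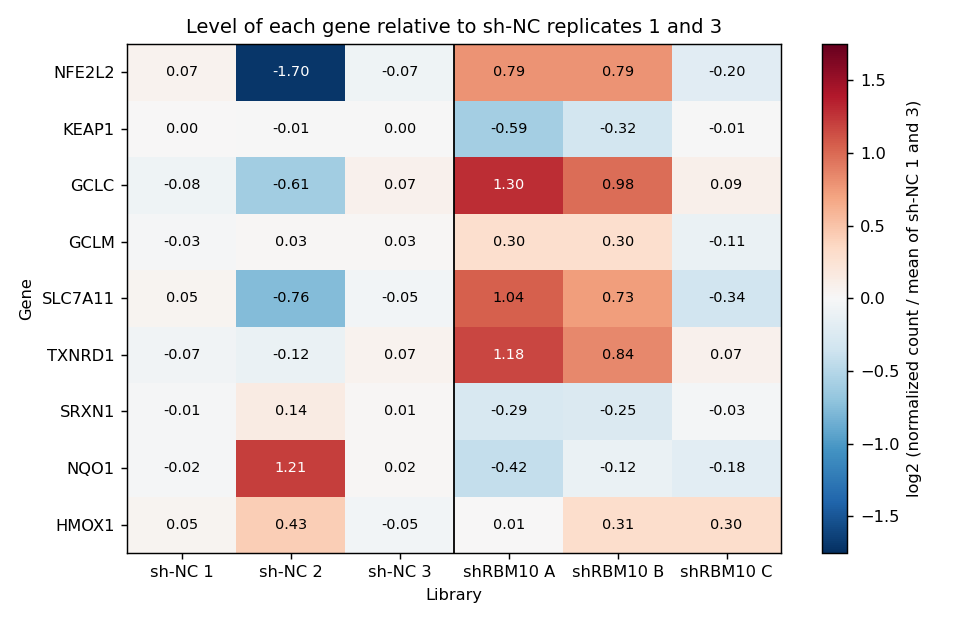
Level of each gene (rows) in each library (columns) as log2 of its normalized count over the mean of sh-NC 1 and 3, so 0 is that mean. The columns of shRBM10 A and B resemble each other, with GCLC at 1.30 and 0.98 and KEAP1 at -0.59 and -0.32, whereas column C lies between -0.34 and 0.30 and sh-NC 2 runs from -1.70 for NFE2L2 to 1.21 for NQO1.

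In the thioredoxin branch, TXNRD1 is the NADPH-dependent reductase of thioredoxin and SRXN1 restores overoxidized peroxiredoxins. TXNRD1 (Entrez gene 7296; chromosome 12, 104215779 to 104350305, plus strand) had normalized counts of 10608, 10222 and 11636 in sh-NC and of 25125, 19963 and 11694 in shRBM10 A to C. A held 2.26 and B 1.79 times the mean of sh-NC 1 and 3, and C was 0.502% above the highest sh-NC library. The sh-NC libraries agreed well for this gene (10822 ± 731, SD, n = 3), and the spread lay within shRBM10 (18928 ± 6775, SD, n = 3). That gave a log2 fold change of 0.81 ± 0.31 (SE), with an adjusted p of 0.177 by edgeR. The value was 0.68 without sh-NC 2, 0.55 without library A and 1.01 without library C.

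SRXN1 (Entrez gene 140809; chromosome 20, 646615 to 653370, minus strand) went the other way. Its normalized counts were 5966, 6639.9 and 6088 in sh-NC and 4941, 5072 and 5883 in shRBM10 A to C. All 3 knockdown libraries were lower, with C 1.39% under the lowest sh-NC library. Its log2 fold change was -0.23 ± 0.22 (SE), with an adjusted p of 0.494 by edgeR. SRXN1 shares 85.0% of its exon bases with AL121758.1 on the same strand, so its counts are uncertain.

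NQO1 (Entrez gene 1728; chromosome 16, 69706996 to 69726951, minus strand), the quinone reductase that is widely used as a readout of NRF2 activity, was the most abundant of the 9. Normalized counts were 28547, 67055 and 29366 in sh-NC 1 to 3 and 21652, 26592 and 25597 in A to C. The value of sh-NC 2 was 2.32 times the mean of sh-NC 1 and 3, and the 3 shRBM10 libraries were at 0.75, 0.92 and 0.88 times that mean. The groups did not overlap, and at 6.85% this was the only one of the 5 gaps above 2%. The means were 41656 ± 21999.8 in sh-NC and 24614 ± 2613 in shRBM10 (SD, n = 3 each), and the log2 fold change was -0.76 ± 0.38 (SE, adjusted p = 0.238 by edgeR). Without sh-NC 2 it was -0.31. In sh-NC 2, 3.31% of the genes with a mean count of at least 50 had a ratio as high as that of NQO1 or higher. Antisense gene AC092115.2 overlaps 17.7% of the NQO1 exon bases.

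HMOX1 (Entrez gene 3162; chromosome 22, 35380361 to 35394214, plus strand), heme oxygenase 1, is also controlled by the repressor BACH1 and by heme. Its normalized counts were 467, 609 and 437 in sh-NC and 456, 560.5 and 557 in A to C. The groups overlapped and sh-NC 2 was the highest of the 6. A log2 fold change of 0.06 ± 0.25 (SE) was found (adjusted p = 0.892, edgeR), and its sign turned without sh-NC 3 (-0.04) or library C (-0.02).

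The level of a gene in libraries A and B followed its GC content. Across 10851 to 10854 genes with a known GC content, the Spearman correlation between GC content and the log2 ratio to sh-NC 1 and 3 was -0.76 in A and -0.69 in B, against 0.02 in C and 0.20 in sh-NC 2. Genes of 1 library are not independent. The 9 genes ranged from 35.4% GC in SLC7A11 and 37.3% in GCLM to 58.1% in HMOX1 and 60.3% in KEAP1, beside a median of 48.8% over all genes. The 5 genes with the lowest GC content had fold changes above 0. NQO1, next at 46.0%, was at -0.76, and HMOX1 was at 0.06 despite its high GC content. With the GC trend of each library removed, the log2 fold change of SLC7A11 was 0.09 ± 0.19 (SE), that of KEAP1 was within 0.01 of 0 with an SE of 0.14, and that of GCLM was -0.52 ± 0.21, opposite in sign to the uncorrected value. GCLC (0.62 ± 0.23), NFE2L2 (0.61 ± 0.43) and TXNRD1 (0.42 ± 0.21) kept their sign at smaller size. NQO1 was at -0.98 ± 0.40 and HMOX1 at 0.33 ± 0.18. In that fit 0 of the 9 genes were called and adjusted p-values lay at 0.244 or above (edgeR), and over all genes the looser rule took 314 as higher and 275 as lower, in place of 1272 and 193. A fit chosen after seeing the data removed the GC trend and left out sh-NC 2. It gave log2 fold changes of 0.22 for NFE2L2, 0.45 for GCLC, 0.39 for TXNRD1, -0.46 for NQO1 and 0.45 for HMOX1. Whether the GC trend arose in the cells or in the preparation of the libraries was not tested.

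**Figure D3:**
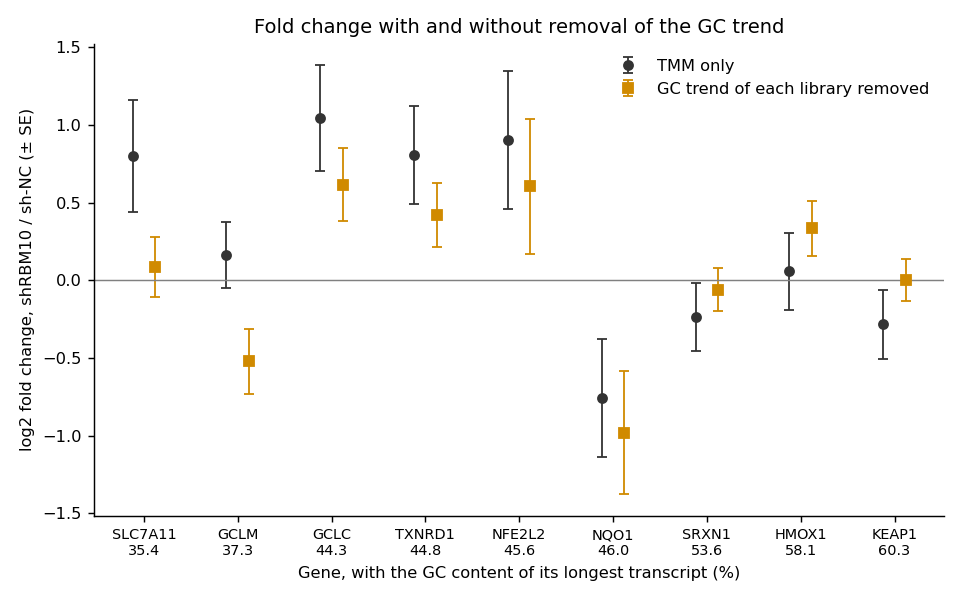
The log2 fold change of shRBM10 over sh-NC (vertical axis, ± SE) of the 9 genes, ordered by the GC content of the longest transcript (horizontal axis, %), with TMM normalization only (circles) and with the GC trend of each library removed (squares). SLC7A11 moves from 0.80 to 0.09 and GCLM from 0.16 to -0.52, while GCLC, TXNRD1 and NFE2L2 stay above 0 and NQO1 stays below.

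RBM10 acts on splicing, so the use of transcripts was compared too. HMOX1 and SRXN1 have a single transcript in the deposited table and GCLC had a single one with enough counts, which left 6 genes to test. None of the 6 shifted (diffSpliceDGE, Simes p between 0.154 and 0.967, adjusted p = 1.00, 0 with an unadjusted p under 0.05), against 8 of 8348 genes tested (0.0958%). Counts per transcript are estimates of how shared reads divide. KEAP1 reads divided between NM_203500 and NM_012289, which held 47.9% and 45.6% of the pooled sh-NC counts and 46.4% and 49.4% in shRBM10. In GENCODE these transcripts begin at 10503741 and 10502896, upstream of the RefSeq start sites used above (10503356 and 10502771), so the printed KEAP1 element lies downstream of the GENCODE start of NM_012289.

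For TXNRD1, NM_182729 held 73.7% of the counts in sh-NC and 77.3% in shRBM10, NM_003330 held 15.8% and 10.5%, and NM_182743 held 7.04% and 9.15%. In A and B the share of NM_003330 was 9.15% and 10.1%, in sh-NC 2 it was 11.1%, and it was 13.7% in C and 16.7% and 17.7% in sh-NC 1 and 3. The groups overlapped. NM_001093771, which begins at the upstream start site, had at most 1.12% in any library, so nearly all TXNRD1 counts were assigned to transcripts of the downstream start region. GENCODE begins NM_182729 at 104286682 and NM_003330 at 104286881, so the printed TXNRD1 element lies downstream of both.

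For SLC7A11, XM_011531802 held 12.3%, 60.8% and 16.0% of the counts in sh-NC 1 to 3 and 5.95%, 7.02% and 15.1% in shRBM10 A to C, with NM_014331 holding the rest. Here sh-NC 2 alone had more of the first than of the second. The usage difference of XM_011531802 was -1.11 on the log2 scale (adjusted p = 1.00, edgeR). NFE2L2 was mainly NM_006164 (88.0% to 93.3% in each library), with NM_001145412 at 4.88% of the pooled sh-NC counts and 6.71% of the shRBM10 counts. NQO1 was mainly NM_000903 (90.4% and 91.4% of the pooled counts), with NM_001025434 at 6.06% and 5.23%. GCLM was mainly NM_002061 (89.8% and 91.5%), with XM_017001056 at 5.96% and 5.79%, and GCLC mainly NM_001498 (91.8% and 97.4%), with XM_017010749 at 8.22% and 2.60%. The counts of XM_017010749 came from 1 library a group, with 95 in sh-NC 1, 62 in A and 0 in the other 4.

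**Figure D4:**
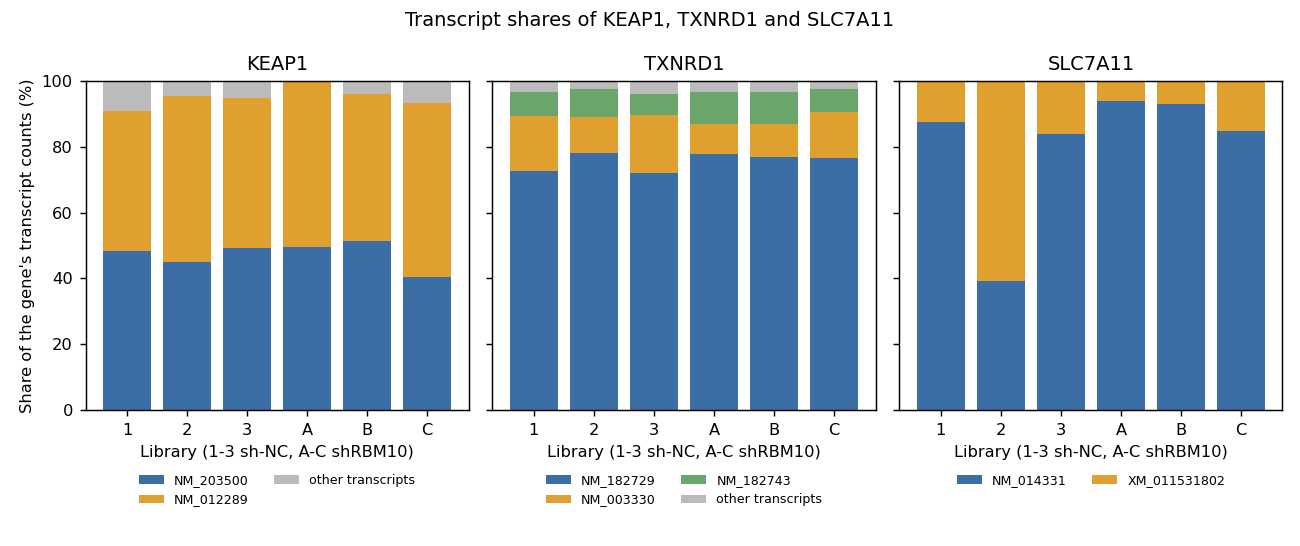
Share of the transcript counts of KEAP1, TXNRD1 and SLC7A11 (vertical axis, %) held by each named transcript in sh-NC libraries 1 to 3 and shRBM10 libraries A to C (horizontal axis). The 2 main KEAP1 transcripts hold 40.3% and 52.9% in library C, where they differ most, and the clearest departure is the 60.8% of XM_011531802 in sh-NC 2.

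The wider pathway was read from 10 lists of 150 genes outside the 9, of which 141 were tested. By edgeR 0 of them were called. By the rule without adjustment, 16 were higher (11.3%, against 10.1% of all genes) and 1 was lower (0.709%, against 1.53%). With the GC trend removed, the same rule took 3 as higher and 2 as lower, against 2.49% and 2.18% of all genes. DESeq2 called 8 higher and 1 lower, 6.43% of the 140 with an adjusted p, against 4.64% of all such genes. The median log2 fold change was -0.11 (all genes, 0.027). List genes named below were picked among those whose groups did not overlap, so their lack of overlap is no further result. Of the 25 list genes named below, the removal of the GC trend turned the sign of 1 (ME1), made the fold change of 11 others smaller by over 1.5 times and let the groups overlap for 2 (ME1 and PTGR2).

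Among 20 genes that control NRF2 (median -0.07), 3 were higher without overlap (15%, against 13.8% of all genes). In the opposite direction 3 were lower (15%, against 16.2%), so both shares were near those of all genes. CUL3, the ubiquitin ligase scaffold that works with KEAP1, had normalized counts of 1065, 344 and 993 in sh-NC and 2416, 2059 and 1068 in shRBM10 (log2 fold change 1.20 ± 0.44 SE, adjusted p = 0.170, edgeR, and 0.51 with the GC trend removed). CHD6 was at 1.27 ± 0.57 (adjusted p = 0.208 by edgeR). Its normalized counts were 301, 46.6 and 342 in sh-NC and 684, 589 and 396 in shRBM10. NFE2L3, a relative of NRF2, was at 0.86 ± 0.27. In all 3, sh-NC 2 was the lowest library.

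Of the glutathione list 27 genes were tested, 10 with values above 0 and 17 below (median -0.13). SLC3A2, the heavy chain that carries SLC7A11 to the cell surface, had normalized counts of 16916, 21456 and 17209 in sh-NC and 8519.9, 8636 and 12332 in shRBM10. It was lower in all 3 knockdown libraries, C included. Its log2 fold change was -0.91 ± 0.27 (SE, adjusted p = 0.153 by edgeR and 0.0357 by DESeq2), whereas SLC7A11 itself was at 0.80. With the GC trend removed, SLC3A2 was at -0.67 and SLC7A11 at 0.09. GPX8, a peroxidase of the endoplasmic reticulum, was called by DESeq2 (1.12 ± 0.33 SE by edgeR, 0.43 with the GC trend removed), and GSTM4, a glutathione transferase, was at -0.72 ± 0.26.

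In the thioredoxin and peroxiredoxin list 10 of 13 values were below 0 (median -0.34). SESN1, a p53-inducible sestrin, was called higher by DESeq2 and had a log2 fold change of 1.49 ± 0.42 (SE, edgeR), and SESN2, a sestrin induced by NRF2 and ATF4, was at -0.90 ± 0.25 with 1846, 1454 and 1797 normalized counts in the control and 794, 742 and 1188 in the knockdown libraries. PRDX6, a peroxiredoxin, was at -0.48 ± 0.25. Of 19 detoxification genes tested (median -0.03), DESeq2 called AKR1B15 higher (1.24 ± 0.28, edgeR) and ALDH3A1, an aldehyde dehydrogenase, lower (-1.01 ± 0.25, edgeR). ALDH3A1 fell from 2299, 3275 and 2396 normalized counts to 1056, 1403 and 1485 with no overlap, and PTGR2 was at 0.85 ± 0.33, or 0.11 with the GC trend removed.

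Of 13 heme and iron genes (median 0.08), SLC40A1, the iron exporter ferroportin, was called higher by DESeq2 (from 153, 155 and 157 normalized counts to 395, 379 and 276). Its log2 fold change by edgeR was 1.17, or 0.65 with the GC trend removed. ACO1, which as an iron-regulatory protein binds mRNA, was at 922, 987 and 994 in sh-NC and 523, 504 and 454 in shRBM10. It was lower in all 3 libraries by like amounts (log2 fold change -0.97 ± 0.22 SE, adjusted p = 0.130 by edgeR and 0.0101 by DESeq2). SLC48A1, a heme transporter, was at -0.71 ± 0.22. Among the 8 NADPH genes (median -0.06) only ME1, malic enzyme, did not overlap (12.5% higher, against 13.8% of all genes). ME1 was at 0.35 ± 0.21, or -0.30 with the GC trend removed.

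Of 15 other NRF2 target genes (median -0.06), DESeq2 called NAMPT, SPP1 and EID3 higher. Over all genes with an adjusted p it called 4.64%, in either direction. In this list 26.7% were higher without overlap (all genes, 13.8%) and 6.67% were lower (all genes, 16.2%). NAMPT, which makes NAD from nicotinamide, had a log2 fold change of 1.43 ± 0.36 and EID3 one of 1.42 ± 0.37 (SE, edgeR). SPP1, which encodes osteopontin, went from 1238, 1686 and 1294 normalized counts to 3965, 3952 and 3143, a difference that library C shared (1.39 ± 0.23 SE, adjusted p = 0.0894 by edgeR). With the GC trend removed, NAMPT was at 0.72, EID3 at 1.05 and SPP1 at 0.82. In the list of superoxide and hydrogen peroxide removal all 4 values were above 0 (median 0.43). DESeq2 called SOD2, the mitochondrial superoxide dismutase (1.21 ± 0.33 SE by edgeR, 0.55 with the GC trend removed).

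SLC7A11 is also a target of ATF4, the transcription factor of amino acid starvation. Of 15 genes of that response, 13 had values below 0 (median -0.52), and 9 were lower without overlap (60.0%, against 16.2% of all genes), but 0 passed the rule without adjustment. SLC7A5, an amino acid transporter that also pairs with SLC3A2, had normalized counts of 21073, 17166 and 21417 in sh-NC and 8570.2, 8768 and 13011 in shRBM10 (-0.98 ± 0.28 SE, adjusted p = 0.153 by edgeR and 0.0297 by DESeq2). TRIB3 was at -0.86 ± 0.26 and ATF3 at -0.78 ± 0.25. With the GC trend removed the median of this list was -0.39. Of 7 ferroptosis genes tested (median -0.26), DHODH was at -0.49 ± 0.27 and AIFM2 at -0.44 ± 0.21. Both were lower without overlap (28.6% of the 7, against 16.2% of all genes).

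Genes with the most similar pattern over the 6 libraries were found for NQO1, HMOX1 and SLC7A11 by the root mean square (RMS) difference of the centred log2 level. For NQO1 these were B9D1 (RMS difference 0.029), PSMB3 (0.049) and ENDOG (0.050), each with its highest count in sh-NC 2. PSMB3, for example, had normalized counts of 3792, 8672 and 3789 in sh-NC and 2673, 3397 and 3529.8 in shRBM10. For HMOX1 they were FAM50A (0.038), HEBP2 (0.044) and IRF9 (0.048), and for SLC7A11 they were PUS7 (0.028), MBNL1 (0.054) and ZNF776 (0.058), which were highest in A and lowest in sh-NC 2. Among the 9 genes themselves, KEAP1 and SRXN1 were most alike (0.11), followed by GCLC and SLC7A11 (0.17), and NFE2L2 and NQO1 were least alike (1.33).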

How the data were processed

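RNA-seq of 6 PC9 libraries (3 sh-NC, 3 shRBM10) was analysed. The authors deposited tables of 16306 genes and 76563 RefSeq transcripts with estimated counts, and these were rounded to whole numbers (87.8% of gene values were whole). The deposited group means of FPKM were used only for levels between genes. Aligner and counting tool are not given in the sources used here, and the submitters' processing notes name hg38. Of each, 18 per-sample columns of other measures were not used, nor were 6 (genes) and 8 (transcripts) columns of group means. Columns of libraries B and C show the group but match no sample title.

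Genes kept by filterByExpr were normalized by TMM and tested with edgeR 4.0.16 (quasi-likelihood, R 4.3.3), with Benjamini-Hochberg adjustment over 12620 genes. The SE is the fold change divided by the square root of F. Normalized counts are counts scaled to the mean effective library size. Counting error is the only error that depth covers. DESeq2 1.42.0, limma-voom 3.58.1, other normalizations and filters, leaving out each library, and removal of GC and length trends (lowess, span 0.3) were alternatives. Transcript usage was tested with diffSpliceDGE. The main edgeR, DESeq2 and limma-voom fits, the removal of the GC trend and the main usage test were tried on simulated counts. The other alternatives were not. The simulated libraries scattered evenly within a group, unlike those here. GC content (97.8% of genes), coordinates and exon overlaps came from GENCODE release 29 (GRCh38).

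The 9 genes and the lists were chosen with earlier results of these data known. Named genes are the 9, RBM10, up to 3 genes per list with the largest fold change among those without overlap and a mean count of at least 50, genes of the lists called by edgeR or DESeq2, the 3 nearest patterns of NQO1, HMOX1 and SLC7A11, and transcripts with at least 5% of the counts of a gene.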

Additional observations from a re-analysis of the deposited data

How the results depend on the processing

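None of the 9 genes was called by edgeR, DESeq2 or limma-voom under any alternative run, nor at an adjusted p under 0.05 with no limit on the fold change, and no transcript usage shifted. By the rule without adjustment, the count of 1 was 0 with limma-voom, with the GC trend or the GC and length trends removed, and with the GC trend removed without sh-NC 2 (chosen after seeing the data), and it ranged from 0 (without sh-NC 2, A or B) to 3 (without C, GCLC, SLC7A11 and TXNRD1). Of all genes 11.6% passed this rule, 4.67% with the GC trend removed, 6.35%, 4.51% and 8.31% without sh-NC 2, A and B, and 16.8% without C. The count of genes without overlap, 5, was 4 with the GC trend removed, 3 with upper quartile scaling and 1 with library size only. It lay between 3 (without sh-NC 2) and 8 (without C) when a library was left out. With the GC trend removed, KEAP1 and TXNRD1 overlapped and GCLM was lower without overlap. Groups with fewer libraries separate more easily, and no share of all genes is given for these settings. The counts are therefore not read as a result about the 9 genes. The median of the 9, 0.16, was 0.29 with library size only, which moved the median of all genes from 0.027 to 0.16, and -0.030 with the GC trend removed without sh-NC 2. It lay between 0.097 and 0.24 when a library was left out. Signs turned for GCLM with the GC trend removed (-0.52), with GC and length trends removed (-0.62) and with the GC trend removed without sh-NC 2 (-0.36). They turned for SLC7A11 in the last 2 of these fits (-0.21 and -0.030), for KEAP1 (0.065) and SRXN1 (0.035) with GC and length trends removed, and for HMOX1 without sh-NC 3 (-0.039) or library C (-0.024), within a range of -0.039 to 0.15 when a library was left out. The other 135 single-gene values kept their sign and stayed uncalled. Why these values moved was not tested.

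No paired analysis was possible because the columns of libraries B and C match no sample title and so carry no replicate number, which leaves 1 number shared by both groups. Their last letters also end the sh-NC titles, but no label says that a letter marks a shared culture or day. With 3 libraries a group, no exact permutation test of a single gene can go below p = 0.1.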
